A study of Mus musculus with 9 samples.

Results

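The genes described here are 10 members of the STAT, SOCS and PIM families, namely Stat3, Stat5a, Stat5b, Cish, Socs1, Socs2, Socs3, Pim1, Pim2 and Pim3, out of 21872 genes with a named probe on the array. They were chosen by symbol, and all 10 were measured, by 12 probes in all. Where a gene had more than 1 probe, the brightest one by its mean over the 9 arrays was used, and the other probe of Stat3 and of Socs2 is given beside it. The cells were granulocyte-monocyte progenitors (GMPs), taken from bone marrow of recipient mice 1 month after transplantation by sorting for Kit, CD16 and CD32 and against lineage markers, Sca1 and CD150. The WT group received wild-type bone marrow. The LeuA and LeuB groups received spleen cells of moribund leukaemic mice with the genotype Tet2-/-:AE, in which Tet2 is missing and AE stands for the fusion AML1-ETO. Each leukaemia arose in a different mouse, LeuA being also called AE1 and LeuB AE3, and all samples have a C57BL/6 background.

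Each group has 3 arrays, named as biological triplicates in the labels. Since each leukaemia traces back to 1 primary mouse, the p-values cover spread between arrays and not between leukaemias, and donor tissue (spleen or marrow) changed together with genotype. The labels' field on the transplanted cells names LeuA for the LeuB arrays, whereas title and source name LeuB, which was followed. LeuB 1 lay on slide 1 with all WT and LeuA arrays, and LeuB 2 and LeuB 3 lay on slide 2. Values are log2 intensities with array medians of 7.02 to 7.04.

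STAT proteins are transcription factors that cytokine receptors switch on. A bound receptor activates JAK kinases, which phosphorylate STAT proteins, and these then enter the nucleus. In blood progenitors STAT5 (from the paired genes Stat5a and Stat5b) carries signals of erythropoietin, thrombopoietin, interleukin 3 and GM-CSF, and STAT3 carries those of interleukin 6 and G-CSF. Among the genes STATs induce are the SOCS family (CIS, the product of Cish, and SOCS proteins), which feed back on the receptor or JAK, and the PIM serine/threonine kinases, which promote survival and growth.

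Transcripts of 3 of the 4 feedback inhibitors, Cish, Socs1 and Socs2, rose strongly in both leukaemias, by 2.46 to 4.39 on the log2 scale, whereas that of Socs3 gave -0.47 and -0.51 and was not called. Stat5a and Stat5b rose by 0.85 to 1.07 in both leukaemias, and Stat3 rose in LeuA. Of the kinases, Pim1 rose and Pim3 fell in both, and Pim2 was not called in either. Calls were made with limma at an adjusted p below 0.05, with the Benjamini-Hochberg method applied to all 21872 genes. In LeuA 7 of the 10 genes rose and 1 fell, beside 36.8% of all genes called, 17.9% higher and 18.9% lower. In LeuB 6 rose and 1 fell, beside 42.3% of all genes called, 21.8% higher and 20.4% lower. The share called was larger among brighter genes. In a fit without genes below the median of gene means, 6619 of 10936 genes were called in LeuA and 7234 in LeuB. That fit held 8 of the 10 genes, without Socs3 and Pim2, and 7 of the 8 rose and 1 fell in each leukaemia. The median log2 change of the 10 genes was 0.90 in LeuA and 0.74 in LeuB, and that of all genes was 0.01 and -0.01. The comparisons share their WT arrays. Called rises in both leukaemias were found in 6 of the 10 genes and 15.3% of all genes, and called falls in both in Pim3 alone of the 10 and in 15.8% of all genes. A called rise of at least 2 on the log2 scale in both was reached by Cish, Socs1 and Socs2, and by 2.1% of all genes. The cutoff of 2 was not in the plan, and members and tests were chosen with earlier results of these data known. These shares are therefore a description and not a test. The leukaemic and WT arrays did not overlap in 9 of the 10 genes in LeuA (49.5% of all genes) and in 9 of 10 in LeuB (52.4% of all genes).

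**Figure D1:**
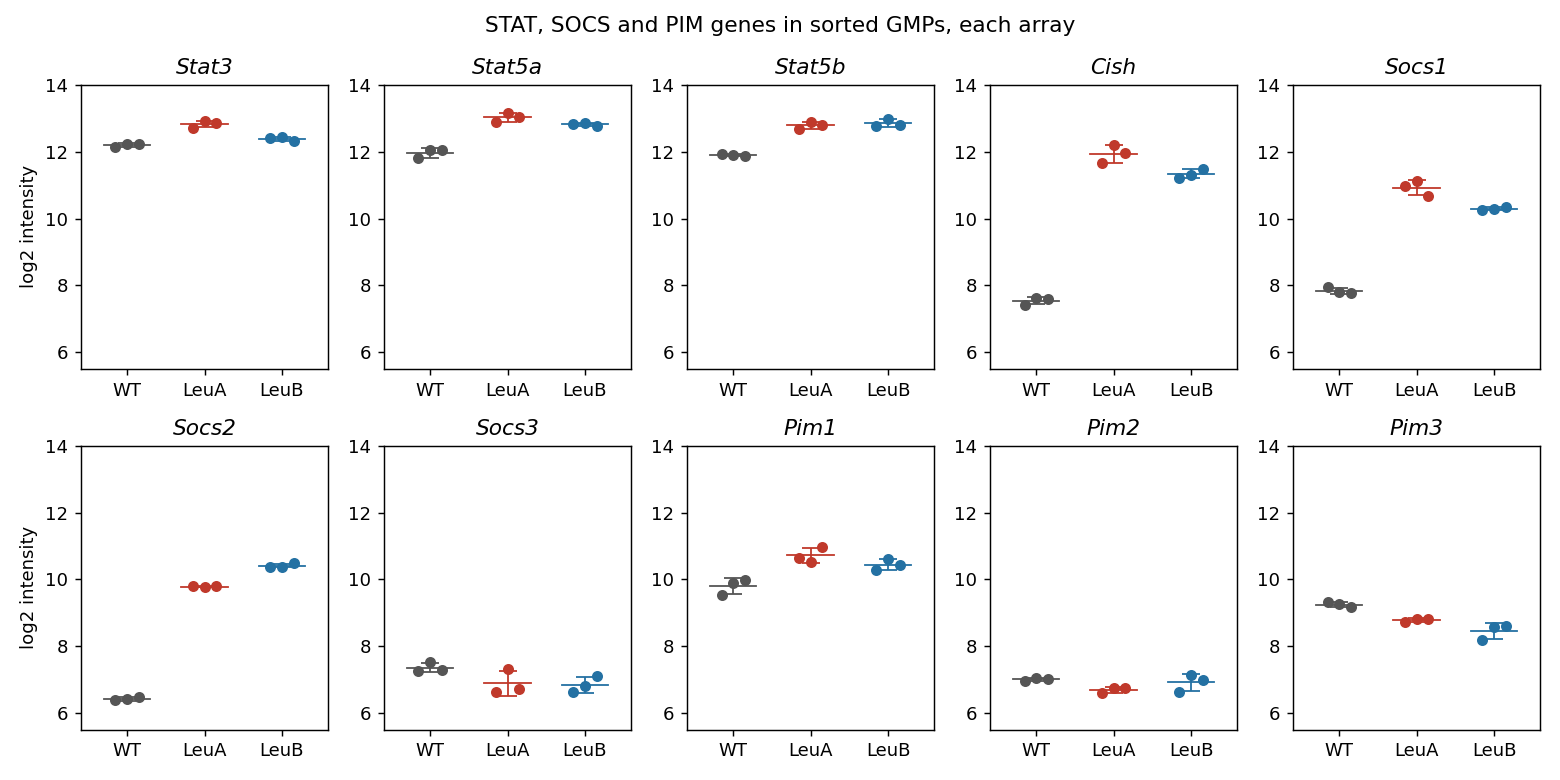
Log2 intensity of each of the 10 genes in the 3 WT, 3 LeuA and 3 LeuB arrays; points are arrays, long horizontal lines are group means and bars are 1 SD. Cish, Socs1 and Socs2 lie below 8 in all WT arrays and above 9.7 in all leukaemic arrays, while the other genes move by 1.07 or less between group means.

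Cish encodes CIS, a classic STAT5 target that competes for STAT5 docking sites on receptors, and lies on chromosome 9 from 107296659 to 107302784 in RefSeq (GRCm38.p6). Its log2 intensity was 7.42, 7.62 and 7.59 in the WT arrays, 11.67, 12.19 and 11.95 in the LeuA arrays, and 11.22, 11.31 and 11.48 in the LeuB arrays. Every leukaemic array lay above every WT array, and every LeuA array above every LeuB array. Cish was 21.0-fold higher in LeuA (4.39, SE 0.13, adjusted p = 4.9e-09) and 13.9-fold higher in LeuB (3.79, SE 0.13, adjusted p = 1.4e-08) than in WT. Of all genes, 0.549% rose further in LeuA and 0.841% in LeuB.

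The start of Cish holds a pair of motifs of the kind STAT5 dimers bind. The motif searched was TTCNNNGAA (TTC and GAA with 3 bases between them), which reads the same on both strands, in windows from 250 bases before to 50 bases after a start of each gene listed in RefSeq (GRCm38.p6). The 12 windows matched 9 of the 10 genes, all but Socs2. The start of a window is the outer end of the gene's span for Cish, Socs1, Pim2, Pim3 and 1 of 2 windows of Pim1, and lies inside the span for Stat3, Stat5a, Stat5b, Socs3 and the other Pim1 window. For Stat5b the 2 starts lie 8423 and 36434 bases inside, so the outer end of its span was not searched. The motif was present in the windows of Cish and Socs3 only, among these 9, and in 8.3% of all 32851 windows. Cish holds it at 2 positions, which 0.457% of all windows do. The stretches of both genes are shown with the motif in capitals, and positions count from 1 at the listed start and from -1 before it. Whether the motif bears on the changes of these genes was not tested. The Cish stretch is on the plus strand of chr9:107296654-107296683, positions -5 to 25, with motifs starting at 1 and 12, and the Socs3 stretch is on the minus strand of chr11:117969501-117969530, with the motif starting at -154 from a start at 117969366, which lies 970 bases inside the span of Socs3, so that this motif is within the span too.
Cish: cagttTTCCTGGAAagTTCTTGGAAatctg
Socs3: gaaaccagccTTCTTAGAAgggaggggggg

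Neither the same letters with 4 bases between them (in 6.95% of all windows) nor AGATAA, a motif of erythroid GATA factors searched on both strands (11.2%), was found in a window of these 9 genes. These are matches of letters, and binding was not measured.

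Socs1 encodes an inhibitor that blocks the kinase domain of JAKs and is known mostly as a brake on interferon signals. The gene lies on chromosome 16 from 10783808 to 10785536 (RefSeq, GRCm38.p6). It read 7.94, 7.79 and 7.77 in WT, 10.97, 11.13 and 10.68 in LeuA, and 10.26, 10.30 and 10.34 in LeuB. The 3 groups did not overlap, with LeuA highest. The rise was 8.51-fold in LeuA (3.09, SE 0.11, adjusted p = 1.5e-08) and 5.51-fold in LeuB (2.46, SE 0.11, adjusted p = 7.4e-08).

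The Socs1 window holds GAAA repeated with 2 bases between the copies, a motif of the kind that interferon regulatory factors (IRFs) bind, found in a search on both strands that was added after this sequence had been read. It occurs there at -83 and -77, as overlapping matches on the gene's strand, in no other window of these genes, and in 3.44% of all windows. The stretch covers positions -105 to -46, on the minus strand of chr16:10785582-10785641, with both matches in capitals.
Socs1: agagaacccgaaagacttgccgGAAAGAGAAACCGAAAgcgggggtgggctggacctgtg

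Socs2 encodes a STAT5-induced inhibitor best known for restraining growth hormone signalling, and lies on chromosome 10 from 95383903 to 95417321 in the same build. The values were 6.39, 6.41 and 6.49 in WT, 9.79, 9.76 and 9.79 in LeuA, and 10.38, 10.38 and 10.47 in LeuB. Here LeuB was the highest group, and no group overlapped another. The change was 10.2-fold in LeuA (3.35, SE 0.06, adjusted p = 2.0e-10) and 15.8-fold in LeuB (3.98, SE 0.06, adjusted p = 1.1e-10). The second Socs2 probe was near the bottom of the scale, with means of 6.08 in WT, 6.39 in LeuA and 6.46 in LeuB. It gave a smaller rise of 0.30 (SE 0.06, adjusted p = 0.0033) and 0.38 (adjusted p = 7.7e-04). The average of both probes gave Socs2 changes of 1.83 and 2.18.

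Socs3 encodes the inhibitor that STAT3 induces and that acts on the receptors of interleukin 6 and G-CSF, and lies on chromosome 11 from 117966079 to 117970336. Its values were 7.26, 7.51 and 7.28 in WT, 6.63, 7.31 and 6.71 in LeuA, and 6.61, 6.80 and 7.11 in LeuB. LeuA 2 lay within the WT range, and all LeuB arrays lay below it. The differences were -0.47 (SE 0.19, 95% interval -0.89 to -0.04, adjusted p = 0.087) in LeuA and -0.51 (SE 0.19, -0.94 to -0.08, adjusted p = 0.055) in LeuB, where intervals are not adjusted for the number of genes. Without LeuA 2 the LeuA difference of Socs3 was called (-0.68, adjusted p = 0.0056), and without LeuB 3 so was the LeuB difference (-0.64, adjusted p = 0.034). The LeuB difference was also called without LeuA 1 or LeuA 2 (adjusted p = 0.048 and 0.012), which enter only the shared estimate of spread.

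No background level was used here, and 28 measured genes of other tissues (such as those for albumin, insulin and rhodopsin) give a picture of low signal, with a median of 6.55 and a 95th percentile of 8.84 over arrays. The WT values of Cish, Socs1 and Socs2, all values of Socs3 and Pim2, and the leukaemic values of Pim3, lay below that percentile. The folds of Cish, Socs1 and Socs2 are therefore ratios of intensity over a low WT signal.

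Stat5b, Stat5a and Stat3 are neighbours on chromosome 11 (GRCm38.p6), at 100780731 to 100859004, 100859351 to 100885169 and 100886806 to 100939594. Stat5a and Stat5b are separated by 346 bases, and Stat3 follows Stat5a after 1636 bases. Stat5a read 11.81, 12.06 and 12.05 in WT, 12.90, 13.17 and 13.04 in LeuA, and 12.82, 12.86 and 12.78 in LeuB. All leukaemic arrays lay above all WT arrays. The rise was 2.09-fold in LeuA (1.07, SE 0.09, adjusted p = 1.0e-05) and 1.80-fold in LeuB (0.85, SE 0.09, adjusted p = 5.1e-05).

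For Stat5b the values were 11.92, 11.89 and 11.88 in WT, 12.69, 12.90 and 12.79 in LeuA, and 12.76, 12.98 and 12.82 in LeuB. Its WT arrays lay within 0.04 of each other, and the leukaemias overlapped. Stat5b was 1.86-fold higher in LeuA (0.89, SE 0.08, adjusted p = 1.1e-05) and 1.94-fold higher in LeuB (0.95, SE 0.08, adjusted p = 6.7e-06). Stat5a and Stat5b are near-identical paralogs, and whether either probe reads both transcripts was not tested.

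Stat3 read 12.14, 12.22 and 12.24 in WT, 12.72, 12.91 and 12.86 in LeuA, and 12.41, 12.45 and 12.32 in LeuB. LeuA stood highest, and LeuB lay between LeuA and WT with no overlap. The LeuA rise of Stat3 was 0.63 (SE 0.07, adjusted p = 6.1e-05). The LeuB difference of 0.19 (SE 0.07, 95% interval 0.03 to 0.35, adjusted p = 0.054) was not called. With each array centred on its median the LeuB difference of Stat3 was called (0.26, adjusted p = 0.017), as it was without LeuA 1 (adjusted p = 0.042). The second Stat3 probe had means of 7.38 in WT, 7.83 in LeuA and 7.66 in LeuB, with changes of 0.44 (adjusted p = 0.027) and 0.27 (adjusted p = 0.14).

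Pim1 encodes a kinase that STAT5 and STAT3 induce and that was found as a common retroviral integration site in mouse lymphomas, and lies on chromosome 17 from 29490785 to 29496111. It read 9.53, 9.90 and 9.98 in WT, 10.65, 10.53 and 10.98 in LeuA, and 10.27, 10.60 and 10.42 in LeuB. All leukaemic arrays lay above all WT arrays, and spread within groups was wide, with a range of 0.45 in WT. In LeuA the rise was 0.91 (SE 0.15, adjusted p = 9.7e-04), and in LeuB 0.63 (SE 0.15, adjusted p = 0.0082). A fit with slide as a block, like one of slide 1 alone, takes the LeuB level from LeuB 1 only, since slide 2 holds no other group, and assumes that this lone array varies like the others. With that array the Pim1 difference was 0.47 and was not called (adjusted p = 0.15 with the block and 0.18 on slide 1 alone).

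Pim3, which encodes a related kinase and lies on chromosome 15 from 88862194 to 88865726, went the other way. Its values were 9.32, 9.25 and 9.17 in WT, 8.72, 8.83 and 8.80 in LeuA, and 8.18, 8.58 and 8.60 in LeuB. Every leukaemic array lay below every WT array, and LeuB 1 was the lowest. The change of Pim3 was -0.46 in LeuA (SE 0.11, adjusted p = 0.0082) and -0.79 in LeuB (SE 0.11, adjusted p = 2.7e-04).

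Pim2, the gene of the third kinase, lies on chromosome X from 7878306 to 7883432. It read 6.96, 7.04 and 7.03 in WT, 6.60, 6.75 and 6.74 in LeuA, and 6.64, 7.14 and 7.00 in LeuB. LeuA lay below WT, and LeuB spanned it. The differences were -0.31 in LeuA (SE 0.12, 95% interval -0.58 to -0.05, adjusted p = 0.066) and -0.08 in LeuB (-0.35 to 0.18, adjusted p = 0.60). The LeuB value depended on single arrays. It was 0.057 without LeuB 1 and -0.19 without LeuB 2, and was not called in either. With slide as a block or on slide 1 alone, which take the LeuB level from LeuB 1 only, it was -0.37 and was called. At the same size, the LeuA difference of Pim2 was called without LeuB 1 (adjusted p = 0.0059) and without LeuB 2 (adjusted p = 0.040). For LeuA against WT, a fit with the slide block is the same as the one without LeuB 1.

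**Figure D2:**
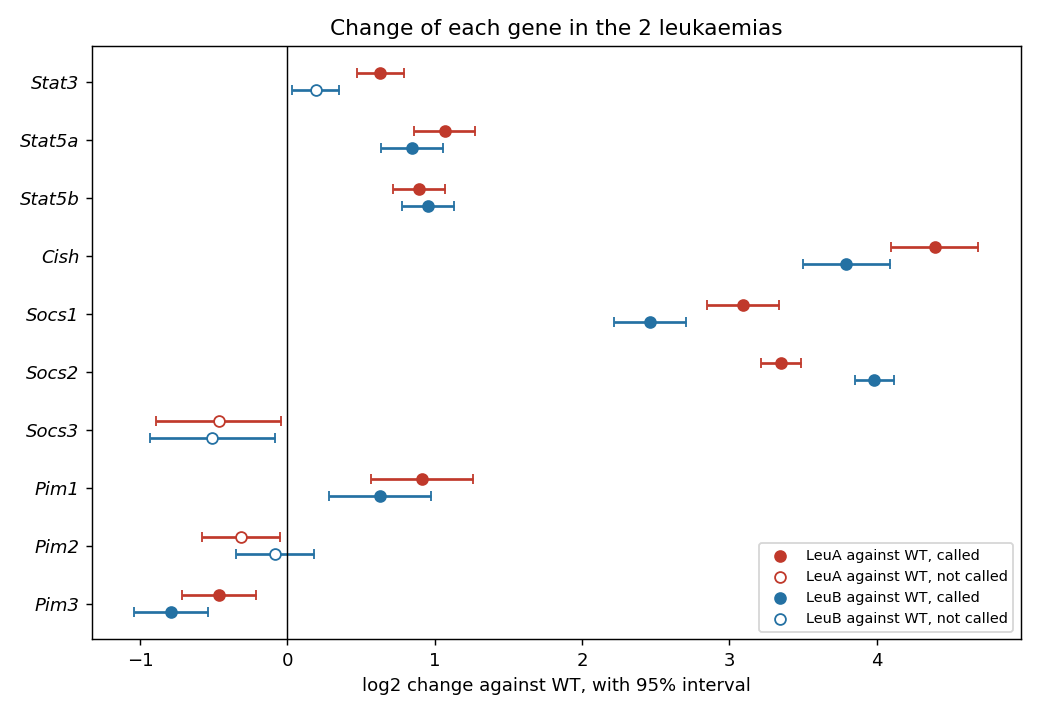
Log2 change of each gene in LeuA and in LeuB against WT, with 95% intervals from the limma fit that are not adjusted for the number of genes; filled points were called and open points were not. Cish, Socs1 and Socs2 lie between 2.46 and 4.39, and the other 7 genes between -0.79 and 1.07.

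The leukaemias also differed from each other in 4 of the 10 genes, beside 12.3% of all genes called in LeuB against LeuA. In the fit without dimmer genes, 2642 of 10936 genes were called, and of its 8 members 1 was higher and 3 were lower. Cish, Socs1 and Stat3 were lower in LeuB, as 5.36% of all genes were, and Socs2 was higher, as 6.91% were. The difference was -0.60 for Cish (SE 0.13, adjusted p = 0.019), -0.63 for Socs1 (SE 0.11, adjusted p = 0.0063), -0.44 for Stat3 (SE 0.07, adjusted p = 0.0043) and 0.63 for Socs2 (SE 0.06, adjusted p = 2.3e-04). So Socs2 ran opposite to Cish and Socs1, with no overlap between the arrays of the leukaemias. In 6 of the 10 genes (these 4, Stat5a and Pim3) the leukaemias did not overlap, which held for 30.2% of all genes.

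For these differences too, slide as a block sets LeuB 1 alone against the LeuA arrays, and slide cannot be told apart from the other LeuB arrays. LeuB 1 gave 0.60 for Socs2 (adjusted p = 0.0057), -0.72 for Cish (adjusted p = 0.085), -0.67 for Socs1 (adjusted p = 0.066) and -0.43 for Stat3 (adjusted p = 0.060), so the last 3 were not called from this 1 array. Pim3 gave -0.33 with all arrays (SE 0.11, adjusted p = 0.093) and depended on LeuB 1, its lowest array. With all arrays quantile normalized again, the limma fit called the Pim3 difference (-0.35, adjusted p = 0.047). It was -0.60 with the block (adjusted p = 0.0087) and -0.19 without LeuB 1 (adjusted p = 0.076). The Cish call was also lost without LeuA 3 (-0.59, adjusted p = 0.058) and without LeuB 2 (-0.59, adjusted p = 0.074). For Stat3 it was lost when both probes were averaged (-0.30, adjusted p = 0.058).

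Beside Pim3, 5 genes were not called between the leukaemias with all arrays in the fit. Stat5a gave -0.22 (95% interval -0.43 to -0.01, adjusted p = 0.17) and Stat5b 0.06 (-0.12 to 0.24, adjusted p = 0.64). Pim1 gave -0.28 (-0.63 to 0.06, adjusted p = 0.26), Pim2 0.23 (-0.04 to 0.49, adjusted p = 0.24) and Socs3 -0.04 (-0.47 to 0.38, adjusted p = 0.90). The Pim2 difference was called without LeuB 1 (0.37, adjusted p = 0.011).

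**Figure D3:**
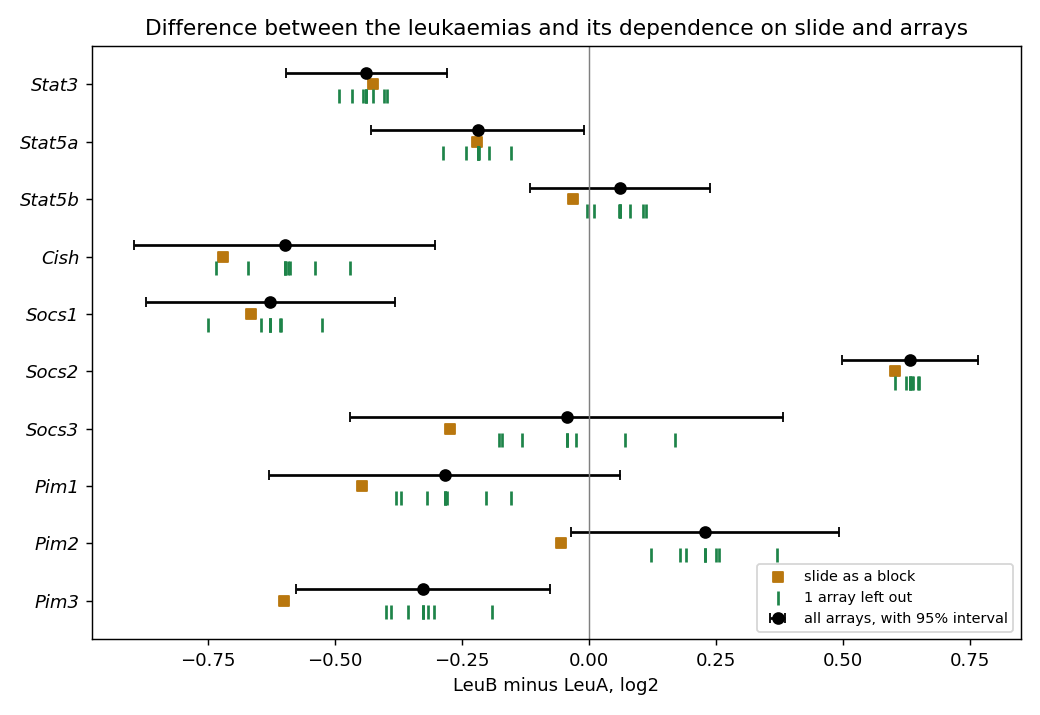
LeuB minus LeuA on the log2 scale for each gene, with all arrays and a 95% interval (black), with slide as a block (orange squares) and with each array left out in turn (green marks). Socs2 lies at 0.63 and Cish and Socs1 at -0.60 and -0.63, on the same sides of 0 in every setting drawn.

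The sorted cells of the leukaemias also differed from those of WT in lineage markers. All 7 GMP and primary granule markers (Mpo, Elane, Prtn3, Ctsg, Ms4a3, Cebpe and Gfi1) fell in both leukaemias, and their mean log2 level per array was 15.97 to 16.12 in WT, 7.92 to 8.00 in LeuA and 7.49 to 8.11 in LeuB, so in the leukaemias this mean lay below the 95th percentile of the genes of other tissues. All 8 measured erythroid markers (Gata1, Klf1, the globins Hba-a1, Hba-a2 and Hbb-bs, Car1, Ermap and Rhd) rose in both, from 8.78 to 8.86 in WT to 14.59 to 14.79 in LeuA and 14.89 to 14.99 in LeuB. Of 8 mast cell and basophil markers, 5 rose and 2 fell in LeuA, against 5 and 3 in LeuB, and their mean levels were at most 10.37 in WT, 12.12 to 12.55 in LeuA and 11.51 to 11.94 in LeuB.

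All 6 measured monocyte markers fell in both, and of 7 neutrophil markers 6 fell in LeuA and 3 in LeuB. Their mean levels were 11.63 to 12.25, 6.57 to 6.61 and 6.59 to 7.14 for monocyte markers, and 9.18 to 11.04, 7.63 to 7.67 and 6.96 to 9.59 for neutrophil markers, in WT, LeuA and LeuB. Single arrays stood apart in the neutrophil markers, LeuB 3 at 9.59 against 6.96 and 7.30 in the other LeuB arrays, and WT 1 at 9.18 against 11.04 and 10.97 in the other WT arrays. Without LeuB 3 and without WT 1, each left out in turn, the calls of the 10 genes against WT and between the leukaemias were all kept. A call of Socs3 in LeuB against WT was gained without LeuB 3 (-0.64, adjusted p = 0.034). Of 5 megakaryocyte markers 1 rose and 4 fell in each, with levels of 9.19 to 9.35, 8.01 to 8.11 and 8.17 to 8.49. B cell markers fell in 2 of 5 genes in each, with levels of 8.08 to 8.20, 6.77 to 6.98 and 7.35 to 7.51. These were Cd79b, with group means of 12.15, 7.45 and 9.41, and Vpreb1, with 8.67, 7.46 and 7.99. Cd79a, Pax5 and Ebf1 were not called. Counts of called markers stand beside the shares of all genes given above for each leukaemia. T cell markers were called in 0 of 4 genes in LeuA, where 1 had an unadjusted p under 0.05, and in LeuB 1 rose and 2 fell (7.97 to 8.07, 7.81 to 7.94 and 7.62 to 7.92). Log2 intensities have no 0, so no marker could be called absent. The part of these markers in the changes of the STAT, SOCS and PIM genes was not tested, and in sorted bulk samples fewer cells of a type and less RNA per cell cannot be told apart.

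Around the 10 genes, 84 others of the pathway were listed by role, and 80 of them were measured. Of these, 26 rose and 31 fell in LeuA, against 26 and 32 in LeuB, with median log2 changes of -0.03 and 0.03. As shares, 32.5% rose and 38.8% fell in LeuA, beside 17.9% and 18.9% of all genes, and 32.5% rose and 40.0% fell in LeuB, beside 21.8% and 20.4%. The counts of the lists that follow stand beside the same shares of all genes. These shares include dim genes, and in the fit without dimmer genes 6619 and 7234 of 10936 were called in LeuA and LeuB. The lists went both ways, and their named genes are those with the largest changes among called ones.

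**Figure D4:**
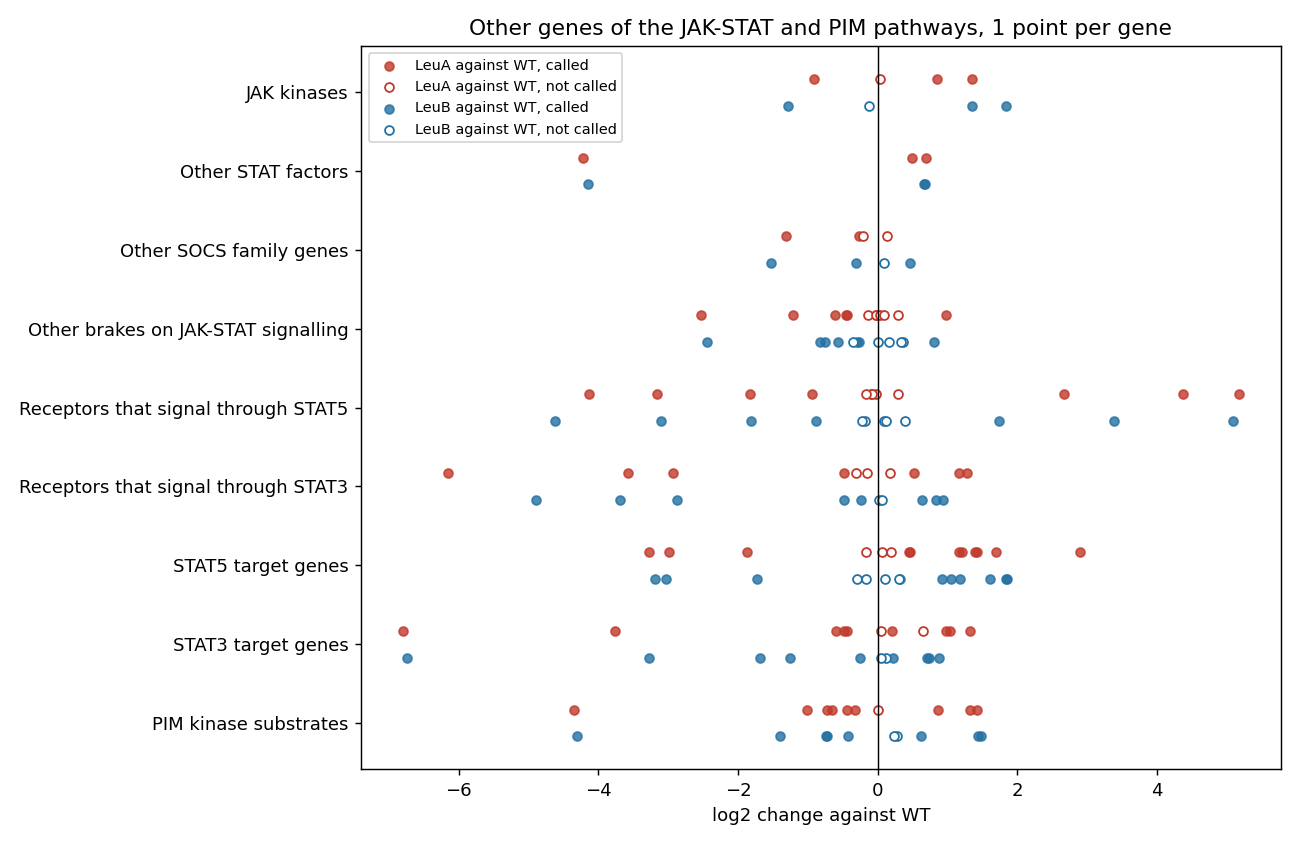
Log2 change against WT of the 80 measured pathway genes, grouped by role, with 1 point per gene and leukaemia; filled points were called and open points were not. Every list but that of other SOCS family genes in LeuA has called genes on both sides of 0.

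Among the kinases that activate STATs, Jak2, which erythropoietin, thrombopoietin and interleukin 3 receptors use, rose. It read 11.32 to 11.43 in WT, 12.62 to 12.82 in LeuA and 13.18 to 13.26 in LeuB, with no overlap. The rise was 1.35 in LeuA (SE 0.07, adjusted p = 2.2e-07) and 1.84 in LeuB (adjusted p = 2.4e-08), and LeuB exceeded LeuA by 0.49 (adjusted p = 0.0022). Jak1 rose by 0.85 and by 1.35 (SE 0.25, adjusted p = 0.024 and 0.0017). Its LeuA call was lost without WT 1 (0.70, adjusted p = 0.089), LeuA 1 (0.65, 0.080) or LeuA 2 (0.73, 0.079), and both Jak1 calls were lost on slide 1 alone (adjusted p = 0.059 and 0.057). Jak3, the partner of the common gamma chain of lymphoid cytokine receptors, changed by -0.91 and -1.29 (SE 0.09).

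Of 3 other STAT genes, Stat4, which interleukin 12 activates, fell from 10.19 to 10.44 in WT to 6.11 to 6.19 in LeuA and 6.07 to 6.29 in LeuB, a change of -4.21 and -4.15 (SE 0.09). Stat2 rose by 0.69 and by 0.67 (SE 0.16) and Stat6, which interleukin 4 activates, by 0.49 and by 0.66 (SE 0.11). A slide block ended the LeuB call of Stat2 (0.67, adjusted p = 0.062), and Stat6 gave 0.42 there.

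Of the 4 other SOCS genes 2 fell in LeuA and 0 rose, and in LeuB 2 fell and 1 rose. Socs5 changed by -1.32 and -1.53 (SE 0.11) in LeuA and LeuB, and Socs7 by -0.27 and -0.31 (SE 0.08, adjusted p = 0.021 and 0.0084). Socs4 was called in LeuB (0.47, adjusted p = 0.0074) and not in LeuA (0.13, adjusted p = 0.46). A slide block also ended the LeuB calls of Socs4 and Socs7 (0.27 and -0.31, adjusted p = 0.17 and 0.068). The LeuA call of Socs7 was lost without WT 2, WT 3 or LeuA 3 (adjusted p = 0.083, 0.064 and 0.074) and with each array centred on its median (0.071).

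Among 12 other brakes on the pathway 1 rose and 5 fell in LeuA, against 1 and 6 in LeuB. The gene that rose was Ptpn2, a phosphatase that removes phosphate from JAKs and STATs (0.98 and 0.80, SE 0.06). Ptprc, which encodes the CD45 phosphatase, changed by -2.53 and -2.44 (SE 0.09), the ubiquitin ligase gene Cbl by -1.22 and -0.76 (SE 0.14), and Sh2b3, which encodes the JAK2 adaptor LNK, by -0.44 and -0.82 (SE 0.11). The second probe of Sh2b3 gave a larger fall (-0.93 and -1.47).

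Receptors that signal through STAT5 split. Of 12 measured, 3 rose and 4 fell in each leukaemia. Epor, the erythropoietin receptor gene, read 7.92, 8.85 and 8.68 in WT, 13.71, 13.61 and 13.63 in LeuA, and 13.75, 13.47 and 13.48 in LeuB. That is a rise of 5.17 and 5.09 (SE 0.21, adjusted p = 4.0e-08 and 4.4e-08). Csf2rb2, which encodes the mouse interleukin 3 receptor beta chain, rose by 4.37 and by 3.38 (SE 0.13), and LeuB was lower than LeuA by a change of -0.98 (adjusted p = 0.0018). Il3ra, the alpha chain of the same receptor, changed by -4.13 and -4.62 (SE 0.25). Flt3, the receptor gene for FLT3 ligand, changed by -3.16 and -3.11 (SE 0.10), whereas its second probe gave -0.10 and -0.09 and was not called.

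Of 10 measured receptors that signal through STAT3, 3 rose and 4 fell in LeuA, against 3 and 5 in LeuB. Il6ra, the interleukin 6 receptor, fell from 12.62 to 12.85 in WT to 6.36 to 6.70 in LeuA and 7.37 to 8.24 in LeuB (-6.15 and -4.89, SE 0.19). Its signalling partner Il6st, which encodes gp130, changed by -2.93 and -2.88 (SE 0.12), Il21r by -3.57 and -3.70 (SE 0.12), and Il27ra rose by 1.17 and by 0.93 (SE 0.08).

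Of 14 genes listed as STAT5 targets, 8 rose and 3 fell in LeuA, against 7 and 3 in LeuB, with medians of 0.45 and 0.31. The largest changes by their mean size over both leukaemias included falls in the cyclin gene Ccnd1 (-3.28 and -3.18, SE 0.10), in Bcl6, a repressor gene that STAT5 is known to lower (-2.98 and -3.03, SE 0.09), and in the survival gene Bcl2 (-1.86 and -1.72, SE 0.10). Id1, an inhibitor of basic helix-loop-helix factors, rose by 1.69 and by 1.61 (SE 0.09).

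Of 11 genes listed as STAT3 targets, 4 rose and 5 fell in each leukaemia. Cebpd and Cebpb, transcription factor genes of granulocyte development, changed by -6.79 and -6.74 (SE 0.20) and by -3.76 and -3.28 (SE 0.22). Vegfa changed by -0.48 and -1.68 (SE 0.12), with -0.17 (not called) and -0.68 at its second probe. Junb rose by 1.32 and by 0.88 (SE 0.10).

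Of 10 genes whose products PIM kinases phosphorylate, 3 rose and 6 fell in LeuA, against 3 and 5 in LeuB. The chemokine receptor gene Cxcr4 changed by -4.34 and -4.30 (SE 0.11). The CDK inhibitor gene Cdkn1b rose by 1.41 and by 1.44 (SE 0.10) and Foxo3 by 1.33 and by 1.49 (SE 0.11), while Foxo1 changed by -1.01 and -1.40 (SE 0.16). The second probes gave 0.34 (not called) and 0.97 for Cdkn1b, and 0.27 and 0.30 for Foxo3.

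The genes most like Stat5a, Cish, Socs1 and Socs2, the members called with a change of at least 1, were sought among 19228 others by the distance between the 9 array values after each gene was centred on its mean. This measure follows the group means and the scatter of single arrays, and the arrays share their processing. For Cish the nearest were Otub2 (distance 0.41), Pde6h (0.45) and Cd55b (0.47). For Socs1 they were Sowaha (0.34), Ccdc9b (0.39) and the interferon-induced Oas3 (0.42). The nearest to Socs2 were the chemokine gene Ccl17 (0.30), Cyb561 (0.34) and the integrin gene Itgb7 (0.35). For Stat5a they were Nav1 (0.21), Ccs (0.25) and Mosmo (0.25). The changes of Ccl17 were 3.33 and 3.98 in LeuA and LeuB, beside 3.35 and 3.98 for Socs2, and those of Otub2 were 4.14 and 3.63, beside 4.39 and 3.79 for Cish.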

How the data were processed

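Total RNA of sorted GMPs was labelled with Cy3 and hybridized to Agilent mouse arrays. The deposited values are log2 intensities of 37877 probes, between 5.66 and 18.24. RMA, affy and limma are named, without versions or roles, per the submitters' processing notes; background correction and detection flags are not given in the sources used here. The arrays had close distributions, with no value moved by more than 0.0890 when they were quantile normalized again, and values were used as deposited, without a filter on dim probes. A probe table supplied with the series gave 1 gene symbol to 24877 probes and none to 13000, and a RefSeq gene table matched 24606 by gene identifier and changed 0 symbols. This gave 21872 genes, 2637 of them with more than 1 probe.

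Group means were fitted to all 9 arrays with limma 3.58.1 (lmFit and eBayes, two-sided) in R 4.3.3, with version 1.17.8 of data.table, and p-values were Benjamini-Hochberg adjusted over all genes. There were 6 residual degrees of freedom, and the prior added 3. The number of arrays limits the precision.

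The members, gene lists and tests were chosen with earlier results of these data known. The members are always named. Of each list up to 4 called genes with the largest mean absolute change over both leukaemias are named, and for members called with a change of at least 1 the 3 genes with the smallest centred distance (unnamed gene models skipped). One list that had been planned is not reported here. Genes of other tissues are a reference for low signal. Promoter windows of 300 bases are from RefSeq (GRCm38.p6). Same-numbered arrays were checked for pairing: after removal of group means, 9 pairs correlated across genes between -0.041 and 0.103, and 1 exceeded 0.1, so numbers were not used as pairs.

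Alternatives were a further quantile normalization, centring on array medians, a filter on genes below the median, the mean of probes, slide as a block, slide 1 alone, a replicate block, eBayes with trend and robust estimation, fits of the groups compared alone, and each array left out. Leaving out WT 1 and LeuB 1 together was added after seeing the data.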

Additional observations from a re-analysis of the deposited data

Results flagged for a closer look

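In 4 genes the change against WT differed between the leukaemias by the limma test of LeuB against LeuA itself. The difference, LeuB minus LeuA on the log2 scale, was -0.44 for Stat3 (adjusted p = 0.0043), -0.60 for Cish (adjusted p = 0.019) and -0.63 for Socs1 (adjusted p = 0.0063), and it was 0.63 for Socs2 (adjusted p = 2.3e-04). In each of the 4 genes all 3 arrays of one leukaemia lay on one side of all 3 of the other. LeuB 1, the LeuB array on the slide of the LeuA arrays, read 12.41, 11.22 and 10.26 for Stat3, Cish and Socs1, below the lowest LeuA values of 12.72, 11.67 and 10.68, and 10.38 for Socs2, above the highest LeuA value of 9.79. For LeuB 2 and LeuB 3, slide and array cannot be told apart.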

How the results depend on the processing

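The 30 results (10 genes in 3 comparisons) were recomputed under 18 planned settings, which gave 534 values, since Pim2 and Socs3 were left out by the filter on genes below the median. Direction and side of the threshold were kept in 492. The values are not independent. In LeuA against WT, slide as a block gives the same fit as leaving out LeuB 1, and slide 1 alone the same as those groups alone. The replicate block, trend and robust estimation, the groups compared alone and leaving out an array of the third group keep each difference at its size. Its direction could not change under these. A call was lost in 11, a call was gained in 23, and the sign was the other one in 8. All rises of Cish, Socs1, Socs2, Stat5a and Stat5b against WT, the LeuA changes of Stat3, Pim1 and Pim3 and the LeuB change of Pim3 were called under each of these settings and without WT 1 and LeuB 1 together. In LeuA against WT, 2 members were lower with slide as a block, on slide 1 alone, with the replicate block, in the fit of the groups compared alone, and without WT 1 and LeuB 1, and 1 to 2 with 1 array left out. In LeuB against WT, 2 were lower with slide as a block, on slide 1, with the replicate block, with trend and robust estimation and in the fit of the groups compared alone, and 1 to 2 with 1 array left out. In LeuB against LeuA, 1 member was lower with slide as a block and on slide 1, and 2 were higher without WT 1 and LeuB 1. With 1 array left out 1 to 2 were higher. All genes called there, 2683 with all arrays, were 869 with slide as a block, 581 on slide 1, 1783 in the fit of these groups alone, 5882 without WT 1 and LeuB 1, and 1380 to 5498 with 1 array left out, the highest being without LeuB 1. Slide as a block and slide 1 alone both rest on LeuB 1 for the LeuB level.

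The sign changes were in small differences, uncalled with all arrays and uncalled where the sign was the other one. Under other settings Pim2 was called. It was lower in LeuB than in WT with slide as a block (-0.37), which rests on LeuB 1. It was higher in LeuB than in LeuA without LeuB 1 (0.37). Pim2 in LeuB against WT gave 0.031 without WT 1 and LeuB 1, and -0.191 to 0.0573 with 1 array left out, positive without LeuB 1. In LeuB against LeuA, slide as a block and slide 1 alone gave -0.0306 for Stat5b and -0.0559 for Pim2. With 1 array left out Stat5b gave -0.0036 to 0.113, negative without LeuB 2, and Socs3 gave -0.177 to 0.17, positive without LeuA 2 or LeuB 1. Without WT 1 and LeuB 1 Socs3 gave 0.0701. The cause was not tested. The replicate block (-0.31 for Pim2 in LeuA, adjusted p = 0.03; -0.51 for Socs3 in LeuB, adjusted p = 0.037) added these 2 calls and changed no other call of a member. Signal over background was not given, which limits what can be said of Pim2, Socs3, the leukaemic levels of Pim3 and the WT levels of Cish, Socs1 and Socs2. The same limit holds for Stat6, Socs5, Il27ra, Junb and Foxo1 and for the second Stat3 probe. Their values lay below 8.84, the 95th percentile of the genes of other tissues, in every array. The leukaemic values of Stat4, Ccnd1, Bcl6, Cxcr4, Il6st and Il21r lay below 6.55, the median of those genes, in every array. The limit therefore also holds for the sizes of their falls.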

Other observations

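Some pathway genes outside the naming rule stood out after their values were seen. Gadd45g, a growth arrest and stress gene listed as a STAT5 target, read 9.47, 9.61 and 10.81 in WT, 12.13, 13.45 and 13.01 in LeuA, and 10.34, 9.98 and 9.89 in LeuB. Its change was 2.90 in LeuA (SE 0.40, adjusted p = 2.6e-04) and 0.11 in LeuB (adjusted p = 0.86), and LeuB differed from LeuA by -2.79 (adjusted p = 0.0024), or by -2.52 with slide as a block (adjusted p = 0.061). Bcl2l1, which encodes the survival protein BCL-XL, rose in both leukaemias (1.39 and 1.83, SE 0.18), while Bcl2 fell in both. The cyclin gene Ccnd2 rose by 1.17 and by 1.85 (SE 0.09), while Ccnd1 fell in both. Myc gave -0.16 and -0.30 (SE 0.11, adjusted p = 0.33 and 0.058). Csf2rb, the common beta chain of the interleukin 3, interleukin 5 and GM-CSF receptors and a near-identical paralog of Csf2rb2, rose by 2.66 and by 1.74 (SE 0.14), and whether the probes of Csf2rb and Csf2rb2 read separate transcripts was not tested.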
